A study of Mus musculus with 44 samples.

Results

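The 10 genes described here build and regulate the cytoskeleton of growing axons: Gap43, Basp1, Sprr1a, the 4 stathmins Stmn1, Stmn2, Stmn3 and Stmn4, and the tubulins Tuba1a, Tubb2b and Tubb6. They were chosen by gene symbol, and all 10 were found in each of the 3 deposited expression tables, among 45882 genes in the 2 larger tables and 12170 in the neuron table. The values come from 44 bulk RNA-seq libraries of C57BL/6 mouse dorsal root ganglia (DRGs), in 12 groups. Mice aged 9 weeks with no surgery gave 4 libraries of flow-sorted satellite glial cells (SGCs), which ensheathe the cell bodies of sensory neurons, and 4 libraries of the whole DRG, dissociated and fixed but not sorted. Mice aged 9 to 11 weeks gave SGC libraries on day 3 and day 14 after full ligation of the sciatic nerve or sham surgery, with 4 libraries in each of these groups. Mice of the same age gave neuron libraries isolated with magnetic beads on day 8 after partial ligation or sham surgery. These comprised 3 libraries each of ligated males, sham males, ligated females and sham females, and 4 libraries each of ipsilateral (ligated side) and contralateral (opposite side) ganglia after ligation. SGCs came from fixed L3 and L4 ganglia and neurons from unfixed L3 to L5 ganglia, so ligation, day, spinal levels and preparation all differ between the SGC and the neuron data. The labels do not tell which libraries share an animal or pool animals, so p-values measure only the spread between libraries, which may be technical.

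A sensory neuron whose axon is cut or tied restarts a growth program in its cell body and must supply new membrane protein and tubulin to the growth cone. Gap43 and Basp1 encode abundant growth cone membrane proteins that act on cortical actin, and Sprr1a encodes a small proline-rich protein that is known from skin and from axotomised sensory neurons. Stathmins bind free tubulin and destabilise microtubules: Stmn1 is found in many cell types, whereas Stmn2, Stmn3 and Stmn4 are the neuronal members with a membrane anchor. Tuba1a, Tubb2b and Tubb6 encode tubulin isotypes, and Tuba1a is the main alpha tubulin of developing neurons.

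RefSeq promoter windows (build GRCm38.p6, 250 bases before to 50 bases after the start) were matched for 4 of the 10 genes. Those of Sprr1a, the gene with the widest difference after ligation, and of Stmn3 are shown. Stmn3 was not called in any surgical comparison, and neither were Tuba1a and Basp1, whose windows were also matched. Both windows shown were chosen with the results below known. Both are on the minus strand and are written 5′ to 3′ along the gene: Sprr1a at chr3:92485832-92486131 and Stmn3 at chr2:181314451-181314750. Capitals mark matches on either strand to 5 motifs. These were AP-1 (spelled TGANTCA), CRE (spelled TGACGTCA), the TATA box (spelled TATAAA), the CCAAT box (spelled as named) and the GC box (spelled GGGCGG), and no match overlapped another motif's.
Sprr1a: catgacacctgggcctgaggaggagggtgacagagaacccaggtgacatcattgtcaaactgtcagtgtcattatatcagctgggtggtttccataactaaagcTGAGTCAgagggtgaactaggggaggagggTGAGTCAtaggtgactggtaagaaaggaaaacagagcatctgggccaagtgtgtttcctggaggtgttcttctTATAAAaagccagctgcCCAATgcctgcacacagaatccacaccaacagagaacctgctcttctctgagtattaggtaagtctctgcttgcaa
Stmn3: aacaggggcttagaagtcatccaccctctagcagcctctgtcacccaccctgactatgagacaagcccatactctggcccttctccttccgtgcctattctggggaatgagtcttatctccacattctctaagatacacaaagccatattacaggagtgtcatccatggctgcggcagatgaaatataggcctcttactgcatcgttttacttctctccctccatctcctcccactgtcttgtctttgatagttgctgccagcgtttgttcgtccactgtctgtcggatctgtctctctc
The Sprr1a window held 2 matches to the AP-1 letters, both TGAGTCA, and 1 each to TATAAA and CCAAT. The Stmn3 window matched none of the 5, which says only that these letters are not in that window. Of 32851 RefSeq windows of this length, 7.81% held the AP-1 letters, 1.79% the CRE, 13.6% TATAAA, 37.4% CCAAT and 35.7% the GC box. The windows also differed in CpG dinucleotides, with 0 in Sprr1a, 6 in Stmn3, 16 in Tuba1a and 38 in Basp1, against a median of 7 over all windows. Of the other matched windows, that of Basp1 held 4 GC box matches and that of Tuba1a 1 GC box and 1 CCAAT match. These matches are a description of sequence and show no binding.

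Gene positions are those in the deposited neuron table (build mm10). Gap43 (ENSMUSG00000047261) is on chromosome 16 from 42248442 to 42340651, Basp1 (ENSMUSG00000045763) on chromosome 15 from 25363285 to 25413764 and Sprr1a (ENSMUSG00000050359) on chromosome 3 from 92483952 to 92485895. Stmn1 (ENSMUSG00000028832) is on chromosome 4 from 134468320 to 134473843, Stmn2 (ENSMUSG00000027500) on chromosome 3 from 8509360 to 8561606, Stmn3 (ENSMUSG00000027581) on chromosome 2 from 181306459 to 181314500 and Stmn4 (ENSMUSG00000022044) on chromosome 14 from 66344296 to 66361680. Tuba1a (ENSMUSG00000072235) is on chromosome 15 from 98949841 to 98953551, Tubb2b (ENSMUSG00000045136) on chromosome 13 from 34127008 to 34130354 and Tubb6 (ENSMUSG00000001473) on chromosome 18 from 67390717 to 67402748. All 10 are annotated as protein coding in GENCODE M21. Tuba1a and Tubb2b have near-identical tubulin relatives with which reads can be shared, so their levels are less certain than those of the others.

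Levels are FPKM (fragments per kilobase of transcript, normalised to library size). Differences were taken between group means of log2(FPKM + 1) and carry their SE. A gene is called here when its limma adjusted p over all tested genes is under 0.05. The 3 tables were scaled separately, so a level in one is not comparable with a level in another. Total reads per library are not in these files, so depth is unknown, and between 10225 and 13173 genes reached 1 FPKM in a library. Of the libraries, the second opposite-side neuron library had the most genes listed at 0 among the neurons (1176, against 207 to 809 in the others). The fourth 14-day ligated SGC library had a summed level of 12 neuron markers of 138 FPKM against 396 to 424 in the other 3 of its group. The labelled cell types showed their markers: 7 SGC markers summed to 11300 to 16961 FPKM in naive SGCs and 3704 to 5530 in DRGs. The 12 neuron markers (such as Rbfox3, Snap25 and Nefl) summed to 74.6 to 229 in naive SGCs, to 2105 to 3706 in DRGs and to 5165 to 8790 in the neuron libraries. Neuronal RNA was therefore measurable in every SGC library. The injury genes Gal, Atf3 and Sox11 were called higher in SGC libraries at 3 days (3 of 3, where 0.0431% of all tested genes were called higher) and on the ligated side of the neurons (3 of 3, 0.659%). In ligated against sham neurons 2 of 3 were called (0.28%), and in SGCs at 14 days 0 of 3 (0.00718%). At 3 days only 1 gene was called in all with no filter, with the replicate block, and without sham library 2 or 3 or ligated library 4, so at least 2 of these 3 calls were lost there.

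In naive mice, the axon growth genes were lower in sorted SGCs than in the whole ganglion. Of the 10, 9 were tested, of which Stmn4 met the filter only through the DRG libraries. The other 8 were all called lower in SGCs, where 44.9% of the 12907 tested genes were called and 27.9% were called lower. The median difference of these 8 was -2.63 against -0.12 over all tested genes. All 8 had every SGC library below every DRG library, as did 27.1% of tested genes. As whole DRGs contain neurons, fewer neurons and less neuronal RNA per cell cannot be told apart in these bulk libraries. The 12 neuron markers were also all called lower (12 of 12, median -3.81).

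Stmn2 had the widest gap. It was measured at 18.0, 55.4, 37.8 and 23.2 FPKM in the 4 SGC libraries and at 758, 913, 654 and 486 in the 4 DRG libraries (difference -4.44 ± 0.35, adjusted p = 3.37e-05). Stmn3 was at 9.73, 24.9, 14.7 and 8.85 in SGCs and 294, 237, 220 and 195 in DRGs (-4.03 ± 0.30, adjusted p = 2.89e-05). Both neuronal stathmins were highest in SGC library 2, the library with the highest summed neuron markers. Gap43 was at 11.4, 4.00, 3.74 and 16.7 in SGCs against 135, 131, 117 and 83.0 in DRGs (-3.77 ± 0.43, adjusted p = 0.000199). Its order among the SGC libraries differed from that of Stmn2, with the highest value in library 4.

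Tubb2b, a beta tubulin, followed at -2.78 ± 0.32 with means of 1.27 ± 1.07 FPKM (SD, n = 4) in SGCs and 13.6 ± 2.33 in DRGs. Basp1 differed by -2.48 ± 0.37, with means of 3.06 ± 1.69 and 20.4 ± 5.30. The smallest gaps were those of Tuba1a, Stmn1 and Tubb6. Tuba1a stood at 538 ± 64.0 in SGCs and 1386 ± 297 in DRGs (-1.35 ± 0.17, adjusted p = 0.000358). Stmn1, the stathmin of many cell types, stood at 85.2 ± 11.8 and 153 ± 18.0 (-0.84 ± 0.14, adjusted p = 0.00157). Tubb6 stood at 5.48 ± 0.44 and 8.41 ± 0.75 (-0.54 ± 0.13, adjusted p = 0.00945). The Tubb6 call did not pass once the median of all tested genes was set equal between libraries (-0.34, adjusted p = 0.0696) or after quantile normalization (-0.34, adjusted p = 0.0629).

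Stmn4 was listed at 0 in all 4 naive SGC libraries and stood at 2.31, 3.23, 3.73 and 1.71 FPKM in DRGs. Its call as lower (-1.87 ± 0.19) is therefore no independent result. Sprr1a was listed at 0 in all 4 SGC libraries and at 0.479, 0.985, 0.329 and 0.674 in DRGs, below the minimum of 1 FPKM, and was not tested. The naive ganglion thus held little of either transcript.

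In SGC libraries after ligation, all 10 genes had higher group means than after sham surgery at both days, but 1 passed the test at 3 days and 0 at 14 days. The gene called at 3 days was Stmn4, and its call was lost without any 1 of 7 of the 8 libraries and in 3 of 7 other settings. At 3 days the median difference of the 10 was 1.14 (0.94 without Stmn4) against -0.01 over all tested genes. Over all genes, 9 of 13924 were called at 3 days (0.0646%, and 0.0431% called higher; 1269 had an unadjusted p under 0.05) and 1 at 14 days (0.00718%; 718 had an unadjusted p under 0.05). At 14 days the median of the 10 was 1.19 (1.17 without Stmn4) against -0.02. In 6 of the 10 genes at 3 days every ligated library exceeded every sham library, where 1.79% of tested genes did, and in 3 of the 10 at 14 days, where 1.69% did. The 6 genes at 3 days were Gap43, Sprr1a, Stmn4, Tubb6, Tubb2b and Tuba1a, and the 3 at 14 days were Gap43, Sprr1a and Tubb6.

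**Figure D1:**
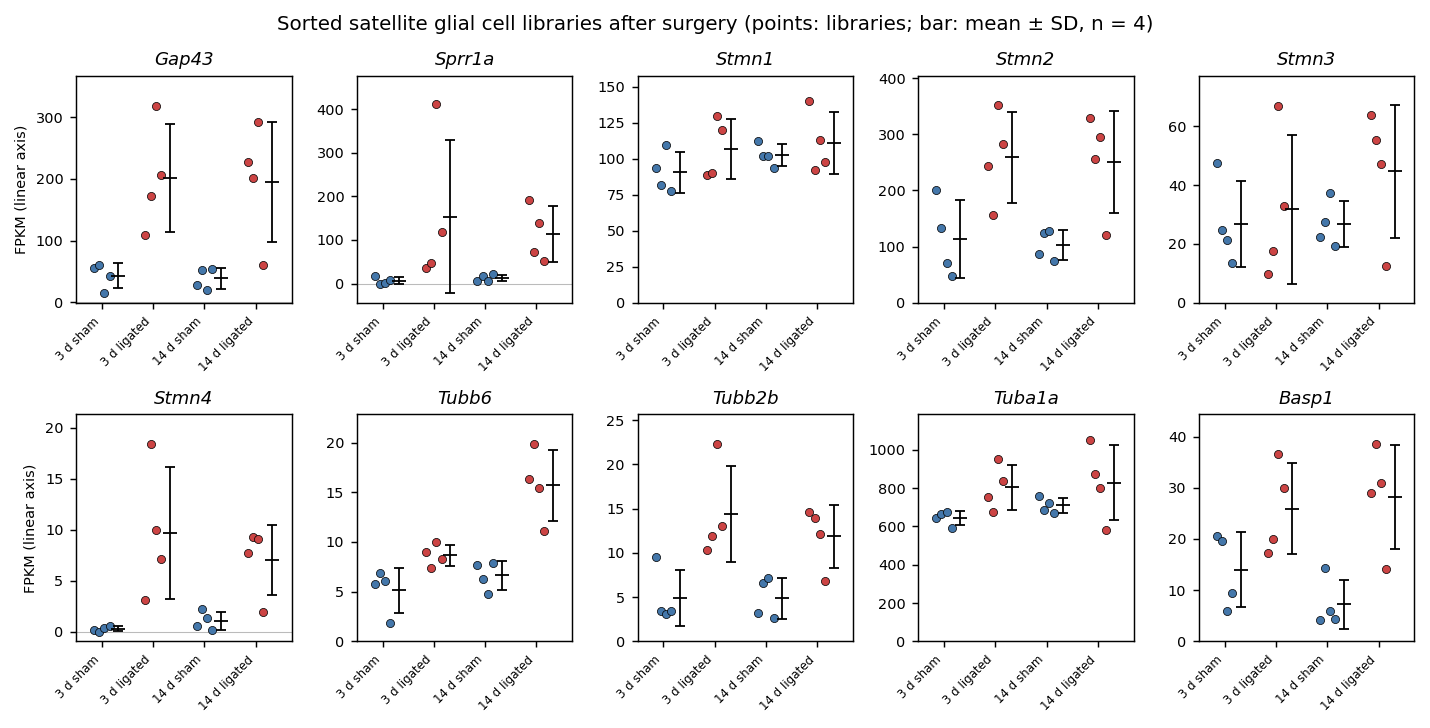
FPKM of the 10 genes in each sorted SGC library (points) after sham surgery (blue) or ligation (red) at 3 and 14 days, with the mean ± SD of 4 libraries beside each group and a linear axis per gene. Gap43, Sprr1a and Tubb6 have no overlap between sham and ligated libraries at either day, while Stmn1 and Stmn3 overlap at both.

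Gap43 was measured at 55.1, 59.9, 14.2 and 43.2 FPKM in the 3-day sham libraries and 109, 172, 319 and 206 in the ligated ones. At 14 days it was at 28.0, 52.8, 20.2 and 54.4 after sham surgery and 228, 202, 292 and 61.0 after ligation. The groups did not overlap on either day, though the fourth 14-day ligated library came close to sham. The means were 4.67-fold apart at 3 days and 5.03-fold apart at 14 days, with differences of 2.27 ± 0.53 and 2.21 ± 0.53. Neither passed the adjustment over all genes (adjusted p = 0.172 and 0.409).

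Sprr1a covered the widest range. At 3 days it stood at 18.0, 0, 1.02 and 8.79 FPKM after sham surgery and at 35.9, 48.3, 412 and 118 after ligation. At 14 days the values were 6.52, 17.8, 6.68 and 20.9 after sham surgery and 192, 71.4, 139 and 51.2 after ligation. Every ligated library exceeded every sham library, but the 3-day difference of 4.47 ± 0.89 did not pass (adjusted p = 0.0919). The difference at 14 days was 3.02 ± 0.89 (adjusted p = 0.697). The sham libraries, with 7 of 8 above 0, differed from the naive ones listed at 0, but the tables were scaled separately and the difference was not tested.

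Basp1, the partner of Gap43 at the growth cone membrane, was at 20.6, 19.7, 6.02 and 9.45 FPKM after sham surgery and 17.2, 20.1, 36.5 and 29.9 after ligation at 3 days. At 14 days it was at 4.23, 14.3, 5.93 and 4.42 after sham surgery and 29.0, 38.5, 31.0 and 14.1 after ligation. The groups overlapped on both days, at 14 days only through 1 sham library at 14.3 and 1 ligated library at 14.1. The difference was 0.94 ± 0.43 at 3 days and 1.89 ± 0.43 at 14 days (adjusted p = 0.533 and 0.409).

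Among the stathmins, Stmn4 was called higher at 3 days, at the edge of the threshold. It was at 0.231, 0, 0.382 and 0.591 FPKM after sham surgery and at 3.17, 18.4, 9.94 and 7.19 after ligation, a difference of 2.85 ± 0.48 (adjusted p = 0.0457). No 3-day sham library reached the minimum of 1 FPKM, and the filter was met through all 8 ligated libraries of the 2 days and 2 of the 4 14-day sham libraries. The call did not pass (adjusted p from 0.0693 to 0.138) without any 1 of the 4 sham libraries or without ligated library 2, 3 or 4, and it passed without ligated library 1 (adjusted p = 0.0401). It also did not pass with no filter on low values (adjusted p = 0.099), with only the groups compared in the fit (0.164) or with the replicate number as a block (0.17). At 14 days Stmn4 was at 0.566, 2.25, 1.36 and 0.219 after sham surgery and 7.70, 9.29, 9.12 and 1.98 after ligation. Here the fourth ligated library fell among the sham libraries, and the difference of 1.88 ± 0.48 did not pass (adjusted p = 0.427).

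Stmn2 was at 201, 133, 71.0 and 48.1 FPKM after sham surgery at 3 days and at 244, 157, 352 and 282 after ligation. At 14 days it was at 86.6, 124, 128 and 73.5 after sham surgery and 329, 256, 296 and 121 after ligation. The groups overlapped by 1 library on each day, and the differences were 1.33 ± 0.42 and 1.22 ± 0.42 (adjusted p = 0.331 and 0.839). Stmn3 was at 47.6, 24.7, 21.4 and 13.5 after sham surgery and 9.64, 17.6, 67.0 and 33.1 after ligation at 3 days (0.04 ± 0.57, adjusted p = 0.993). At 14 days Stmn3 stood at 22.5, 27.6, 37.3 and 19.3 against 63.8, 55.3, 47.1 and 12.6 (0.55 ± 0.57). Its ligated libraries lay both above and below the sham libraries on both days. Stmn1 ranged from 77.6 to 110 after sham surgery and from 88.7 to 130 after ligation at 3 days (0.23 ± 0.17), and from 93.8 to 113 and 92.2 to 140 at 14 days (0.10 ± 0.17).

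Of the tubulins, Tubb6 was at 5.75, 6.92, 6.09 and 1.84 FPKM after sham surgery and 8.97, 7.42, 9.97 and 8.29 after ligation at 3 days. At 14 days it was at 7.68, 6.27, 4.75 and 7.91 against 16.4, 19.8, 15.4 and 11.1. The groups did not overlap, the means were 1.68-fold and 2.36-fold apart, and the differences were 0.75 ± 0.29 and 1.12 ± 0.29 (adjusted p = 0.442 and 0.443). Tubb2b was at 9.57, 3.41, 3.14 and 3.40 after sham surgery and 10.4, 11.9, 22.3 and 13.0 after ligation at 3 days (1.45 ± 0.37, adjusted p = 0.236). At 14 days it was at 3.15, 6.63, 7.11 and 2.59 against 14.6, 13.9, 12.1 and 6.78 (1.17 ± 0.37, adjusted p = 0.798). The sham library nearest to ligated levels at 3 days was library 1, which also had the highest summed neuron markers. Tuba1a had means of 644 ± 37.4 and 805 ± 118 at 3 days (0.31 ± 0.16) and of 710 ± 40.3 and 828 ± 195 at 14 days (0.19 ± 0.16).

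The ligation effect did not differ detectably between the days in any of the 10 (0 called, adjusted p = 1.0 for each). The differences of effect ran from -1.45 ± 1.26 in Sprr1a to 0.95 ± 0.61 in Basp1. Over all genes 1 was called (0.00718%; 584 had an unadjusted p under 0.05). The wide SE leaves room for sizeable differences between the days.

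The authors' deposited tables, made with DESeq2, give the same direction at both days for all 10 genes and more of them past 0.05. As they belong to the same series and their sign was read against the FPKM values, the shared direction is no independent result. At 3 days 3 of the 10 passed in the authors' deposited table, where 0.498% of genes with an adjusted p passed in this direction: Stmn4 (log2 fold change 5.66, adjusted p = 1.66e-10), Gap43 (2.36, adjusted p = 3.95e-05) and Tubb2b (1.60, adjusted p = 0.0313). At 14 days 6 of the 10 passed in the authors' deposited table, where 0.641% passed in this direction. These were Sprr1a (3.07, adjusted p = 3.05e-08), Basp1 (2.00), Tubb6 (1.25), Stmn2 (1.29), Stmn4 (2.78) and Gap43 (2.24). In the authors' deposited tables Stmn1, Stmn3 and Tuba1a did not pass at either day.

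The SGC libraries hold neuronal RNA, so the levels were set beside those of the 12 neuron markers, by a ratio chosen after the values had been seen. None of the 12 markers was called at either day, and their median difference was -0.13 at 3 days and 0.23 at 14 days. Their sum ranged from 127 to 618 FPKM after sham surgery and from 225 to 383 after ligation at 3 days, and from 139 to 356 and 138 to 424 at 14 days. The sums overlapped between sham and ligated libraries on both days. The markers may themselves respond to ligation, which would move the ratio, and this was not tested. In isolated neurons 2 of the 12 had a positive difference from sham (median -0.09, 0 called). From the opposite side it was 7 of 12 (median 0.13, 0 called). Per 100 FPKM of neuron markers, Stmn2 stood at 32.5 to 38.0 FPKM in the 3-day sham libraries and 69.8 to 108 in the ligated ones, with 32.2 to 53.0 and 60.4 to 87.8 at 14 days. On this ratio the Stmn2 groups did not overlap on either day, whereas its FPKM did. Gap43 stood at 6.68 to 34.1 and 37.1 to 97.4 at 3 days, and at 5.68 to 39.2 and 44.3 to 73.6 at 14 days. Sprr1a stood at 0 to 6.95 and 12.3 to 126 at 3 days and at 1.88 to 15.1 and 16.9 to 46.5 at 14 days. Stmn4 and Tubb2b did not overlap on this ratio on either day. The share of all tested genes that separate on this ratio was not computed, for SGCs or for neurons. How unusual such a separation is therefore remains unknown. In isolated neurons the Stmn2 ratio overlapped, at 17.9 to 42.3 in ligated males and 21.0 to 34.6 in sham males. For females the ranges were 23.3 to 34.8 and 18.9 to 26.0. Gap43 did not overlap on the ratio in neurons, at 3.84 to 9.52 in ligated and 1.96 to 3.66 in sham males. In females it was at 6.37 to 9.12 and 3.26 to 3.38. Sprr1a, Stmn4 and Tubb6 did not overlap in either sex either. Tuba1a overlapped in males only, and the remaining genes overlapped in both sexes.

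Stmn3 overlapped between surgeries on both days, with 6.47 to 10.7 per 100 FPKM of neuron markers in 3-day sham libraries and 3.30 to 20.5 in ligated ones, and 8.36 to 13.9 and 9.11 to 15.4 at 14 days. The ratios of Stmn1 and Tuba1a overlapped as well. Tubb6, whose FPKM did not overlap on either day, overlapped on this ratio on both, with 0.93 to 2.86 and 2.17 to 3.30 at 3 days and 1.33 to 5.71 and 3.89 to 8.05 at 14 days. Basp1 overlapped at 3 days (2.83 to 7.47 and 5.90 to 11.2) but not at 14 days (1.57 to 4.87 and 7.0 to 10.3). Which cells in the sorted fraction carried each transcript was not tested. Among the other marker lists, 6 endothelial markers had summed levels of 153 to 297 FPKM after sham surgery and 220 to 429 after ligation at 3 days, and of 128 to 254 and 199 to 343 at 14 days. All 6 had positive differences on both days, 0 of 6 was called, and their part in the results above was not tested. The 6 repair Schwann markers summed to 13.1 FPKM at most, with Olig1 listed at 0 in every sham library. The 6 macrophage markers summed to 4.65 to 8.46 after sham surgery and 1.53 to 12.5 after ligation at 3 days, and to 1.77 to 10.9 and 6.74 to 23.0 at 14 days, when all 3 that could be tested had positive differences (median 0.94, 0 called). Their part in the results was not tested either.

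**Figure D2:**
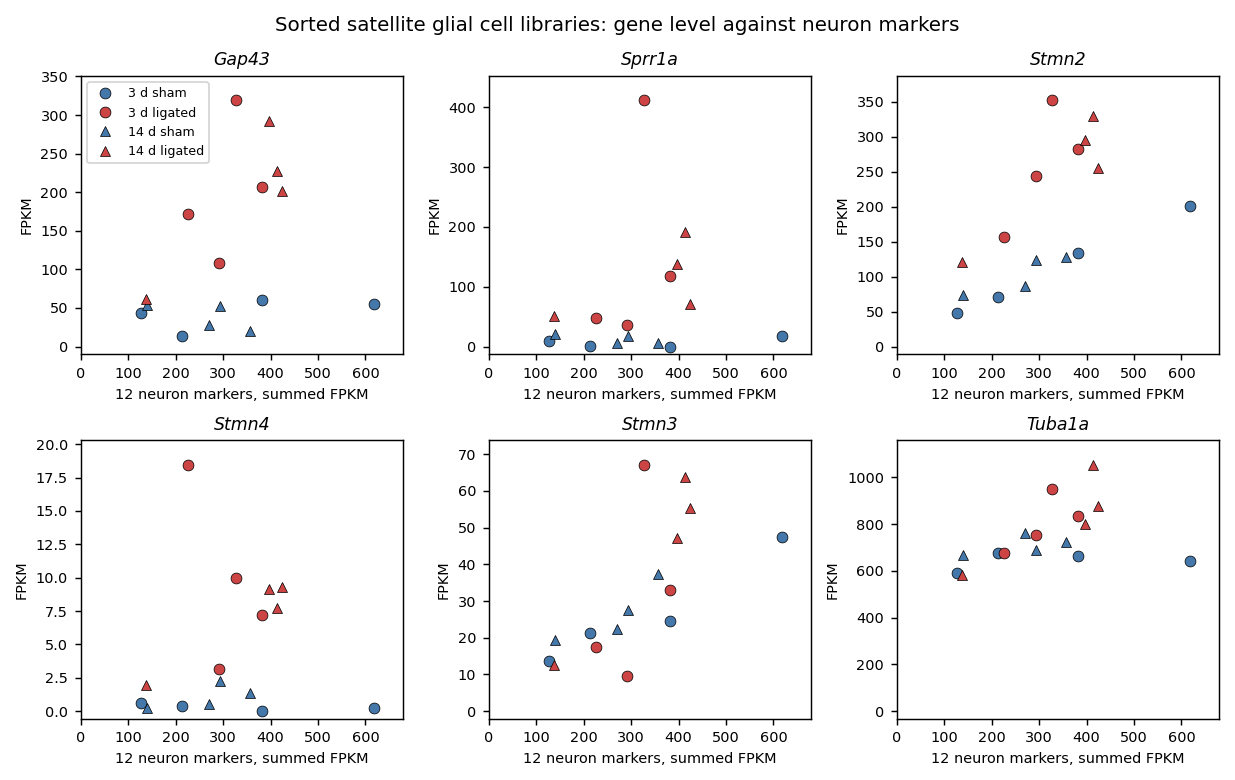
FPKM of 6 of the genes (vertical axes) against the summed FPKM of 12 neuron markers (horizontal axes) in each of the 16 sorted SGC libraries after surgery. Ligated libraries (red) lie above sham libraries (blue) of like neuron marker level in Gap43, Sprr1a, Stmn2 and Stmn4, and mix with them in Stmn3.

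In isolated neurons at 8 days, 4 of the 10 genes rose after ligation against sham surgery: Sprr1a, Tubb6, Stmn4 and Gap43. Over all genes 34 of 12145 were called (0.28%), all 34 higher. The same 4 genes were those whose ligated libraries all lay above all sham libraries, as 0.692% of tested genes did. The median difference of the 10 genes was 0.32 against -0.04 over all tested genes. The other 6 overlapped between surgeries. The 5 myelinating Schwann markers in the neuron table summed to 1390 to 2848 FPKM in ligated and 1259 to 2375 in sham males. In females the sums were 1010 to 2448 and 1100 to 2031. The 5 endothelial markers summed to 18.7 to 39.0 in ligated and 35.1 to 57.8 in sham males, and to 36.1 to 54.9 and 31.7 to 39.9 in females. None of these markers was called, and their part in the results was not tested.

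**Figure D3:**
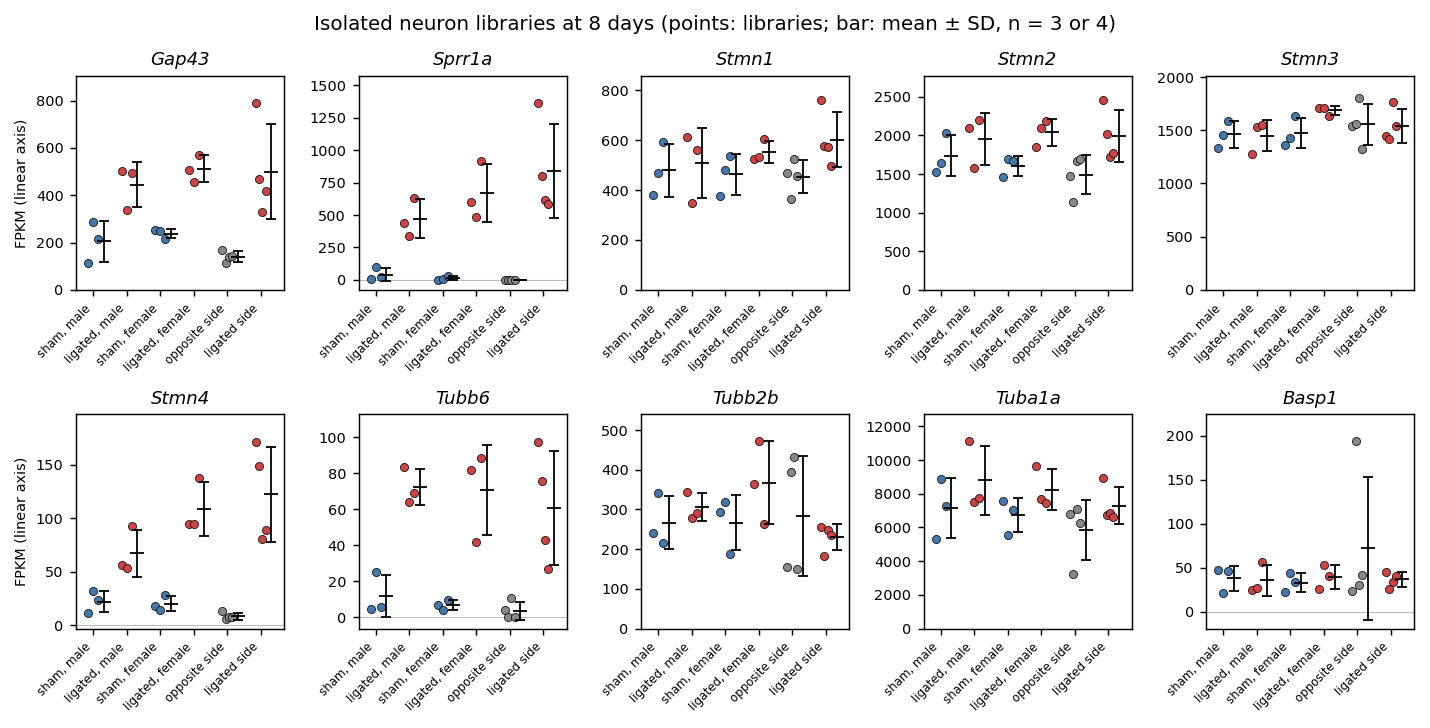
FPKM of the 10 genes in each isolated neuron library at 8 days (points), with the mean ± SD of 3 or 4 libraries beside each group and a linear axis per gene. Sprr1a, Stmn4, Tubb6 and Gap43 are higher in every ligated library (red) than in every sham (blue) or opposite-side library (grey), and Stmn3 lies at similar levels in all groups.

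Sprr1a was at 5.96, 96.5 and 18.1 FPKM in sham males and 442, 339 and 635 in ligated males. In females it was at 0, 3.62 and 28.4 after sham surgery and 597, 486 and 916 after ligation. The lowest ligated library was thus above the highest sham library, and the difference was 5.63 ± 0.61 (adjusted p = 0.000117). The gene ranked 2 of all tested genes by p. Its adjusted p stayed between 2.86e-06 and 0.000843 when each library was left out in turn.

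Gap43 was at 115, 287 and 215 FPKM in sham males and 504, 337 and 495 in ligated males, and at 252, 247 and 216 in sham females and 505, 458 and 572 in ligated females. The means over sexes were 222 ± 58.8 and 479 ± 78.4 (n = 6 each), 2.16-fold apart, with a difference of 1.14 ± 0.22 (adjusted p = 0.0177). The call did not pass without ligated male library 1 (adjusted p = 0.0632) or 3 (0.0703), ligated female library 3 (0.0759), sham male library 1 (0.0524) or sham female library 3 (0.0603), nor with the medians of all tested genes set equal (0.051). Its difference ranged from 0.96 to 1.28 over the libraries left out. Basp1 was at 21.4 to 46.9 in the 6 sham libraries and 24.2 to 55.9 in the 6 ligated ones, a difference of 0.06 ± 0.40 whose sign depended on the library left out.

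Stmn4 was at 11.3, 31.7 and 23.2 FPKM in sham males and 55.9, 53.5 and 92.5 in ligated males, and at 17.6, 14.3 and 28.3 in sham females and 94.3, 94.2 and 138 in ligated females. The means were 21.1 ± 8.04 and 88.0 ± 30.9 (n = 6 each), 4.18-fold apart, with a difference of 2.02 ± 0.27 (adjusted p = 0.000778). Its 3 relatives moved far less. Stmn2, at 1457 to 2037 in sham and 1573 to 2201 in ligated libraries, differed by 0.26 ± 0.14. Stmn1, at 375 to 591 and 350 to 614, differed by 0.17 ± 0.16, and Stmn3, at 1337 to 1638 and 1279 to 1713, by 0.09 ± 0.12 (adjusted p = 1.0 for each of the 3). The responding stathmin was the least abundant of the 4 in neurons, with a sham mean far under the 472 of Stmn1, the 1468 of Stmn3 and the 1671 of Stmn2.

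Tubb6 was at 4.59, 25.3 and 5.79 FPKM in sham males and 83.4, 64.3 and 69.0 in ligated males, and at 6.68, 4.15 and 9.58 in sham females and 81.7, 41.9 and 88.5 in ligated females. The means were 9.35 ± 8.06 and 71.5 ± 17.1, 7.64-fold apart, with a difference of 3.03 ± 0.53 (adjusted p = 0.00996). With a pseudocount of 0.1 in place of 1 the call did not pass (3.19 ± 0.86, adjusted p = 0.291). The abundant isotypes differed less: Tuba1a had means of 6938 ± 1322 and 8530 ± 1533 (0.30 ± 0.20), and Tubb2b of 266 ± 61.3 and 336 ± 77.5 (0.34 ± 0.25), with adjusted p = 1.0 for both. In FPKM, the added Tuba1a was larger than the whole level of Tubb6, but it was within the spread between libraries. Sham male library 2 had the highest sham level of Gap43, Sprr1a, Stmn4 and Tubb6 alike.

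**Figure D4:**
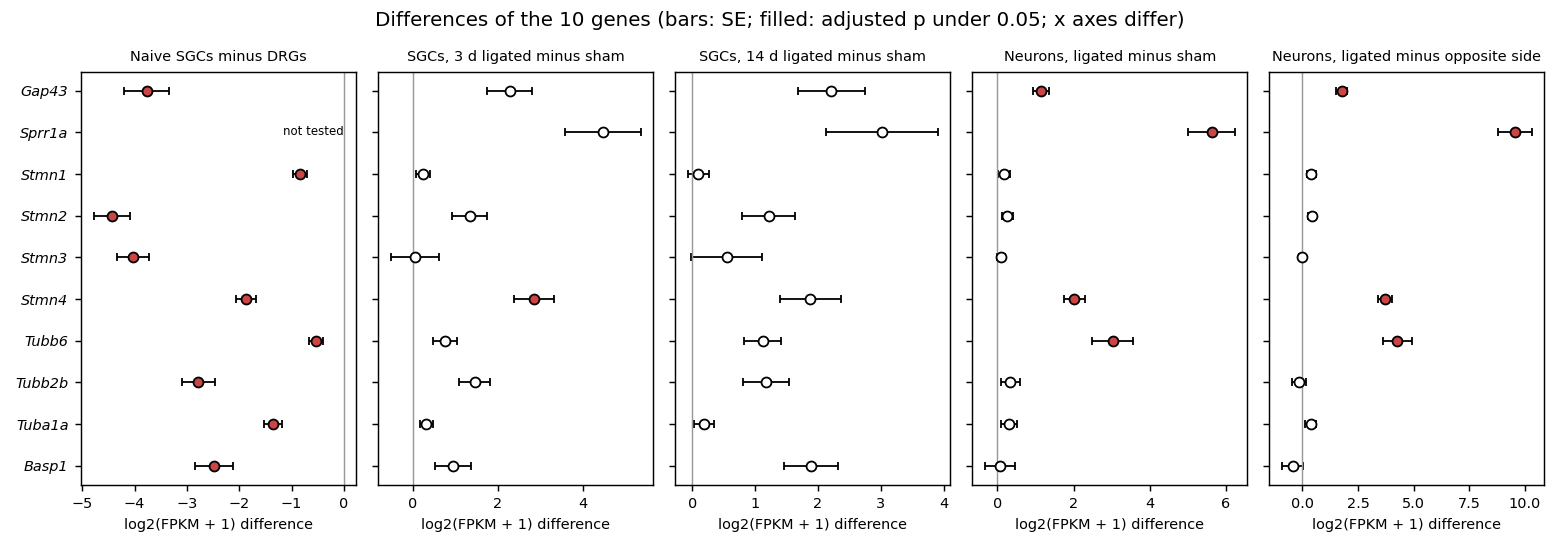
Difference in log2(FPKM + 1) of each gene in 5 comparisons (points, with SE bars), filled where the limma adjusted p was under 0.05. Horizontal axes differ between panels. All tested genes lie left of 0 in naive SGCs against DRGs, and Sprr1a, Stmn4, Tubb6 and Gap43 are filled in both neuron comparisons.

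None of the 10 ligation effects differed between the sexes by the test of the difference (0 called, adjusted p = 1.0 for each). Across all genes limma called 0 (0%), with 130 genes at an unadjusted p under 0.05. The widest was that of Sprr1a, where the female effect was larger by 2.69 ± 1.23 (unadjusted p = 0.0412, limma). Its sham mean was 10.7 FPKM in females and 40.2 in males, and its ligated mean 666 and 472. The Gap43 difference was -0.09 ± 0.43, the Stmn4 difference 0.78 ± 0.54 and the Tubb6 difference 0.33 ± 1.06.

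The ligated and opposite sides of ligated mice showed the 4 genes again, with wider gaps. Sprr1a, Stmn4, Tubb6 and Gap43 rose, where 81 of 12145 genes were called (0.667%), 80 of them higher (0.659%). Sprr1a was at 1362, 799, 615 and 587 FPKM on the ligated side and at 0.0701, 0.144, 0 and 0 on the opposite side (9.56 ± 0.75, adjusted p = 1.04e-06). It ranked 1 of all tested genes by p. Stmn4 ranked 2, at 171, 149, 80.3 and 89.2 against 13.1, 5.51, 7.43 and 7.39, with means 14.6-fold apart (3.71 ± 0.33, adjusted p = 4.85e-06). These 2 genes therefore led the whole comparison. Gap43 was at 789, 467, 328 and 417 against 169, 112, 141 and 141, 3.55-fold apart (1.76 ± 0.26, adjusted p = 0.00116). Tubb6 was at 97.4, 75.8, 43.0 and 26.6 against 4.26, 0, 10.6 and 0.102 (4.26 ± 0.65, adjusted p = 0.00141).

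All 4 were called when any 1 of the 8 libraries was left out, the second opposite-side library included. Stmn2 was at 2455, 2015, 1721 and 1773 FPKM on the ligated side and 1471, 1138, 1674 and 1691 on the opposite side. Its groups did not overlap, as was true of 2.68% of tested genes, but the difference of 0.42 ± 0.17 did not pass (adjusted p = 0.416). Stmn3 was at 1445, 1417, 1769 and 1536 against 1542, 1556, 1802 and 1328 (-0.01 ± 0.14), a near match between sides. Stmn1 differed by 0.40 ± 0.20 and Tuba1a by 0.37 ± 0.24. Tubb2b (-0.14 ± 0.31) and Basp1 (-0.44 ± 0.48) had lower ligated means. Single opposite-side libraries weighed on both. Basp1 stood at 194 in the second against 23.2, 30.4 and 41.5 in the other 3, and without it the Basp1 difference was 0.21. Tubb2b stood at 156, 395, 432 and 151, and its difference was 0.08 without the second library and 0.12 without the third. Markers of other cells were present in the neuron libraries. The 5 endothelial markers in the neuron table summed to 17.5 to 42.3 FPKM on the ligated side and 45.3 to 123 on the opposite side, and the 5 myelinating Schwann markers to 1153 to 1552 and 726 to 1738. The 3 SGC markers there summed to 36.5 to 54.7 and 39.5 to 72.4, and the 2 repair Schwann markers to 54.2 to 116 and 24.4 to 117. The 2 mural markers summed to 32.5 to 47.1 and 30.3 to 67.1. The 1 fibroblast marker stood at 14.7 to 26.1 and 2.17 to 13.9, and the 1 macrophage marker at 0 to 1.33 and 0 to 8.23. None of them was called, and their part in the results was not tested. No label gives the sex of these libraries or ties a ligated side to its opposite side, so no paired comparison was made.

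The opposite-side and sham libraries belong to different groups of mice and were not compared by a test. Side by side, Sprr1a stood at 0 to 0.144 FPKM on the opposite side and 0 to 96.5 after sham surgery. Stmn4 stood at 5.51 to 13.1 and 11.3 to 31.7, and Gap43 at 112 to 169 and 115 to 287. The means of the 3 were lower on the opposite side. In the authors' deposited neuron table, which does not say which libraries entered, 4 of the 10 genes had an adjusted p under 0.05, where 1.38% of genes passed in this direction: Stmn4 (log2 fold change 2.01), Gap43 (1.20), Tubb6 (1.20) and Stmn2 (0.34, adjusted p = 0.0417). In the authors' deposited neuron table Sprr1a had a log2 fold change of 0.61 ± 0.21 (SE) and an adjusted p of 0.115, far from the difference in the FPKM values. That of Tubb6, at 1.20 ± 0.26, was also smaller than its difference of 3.03 ± 0.53 in log2(FPKM + 1). The reason was not tested for either gene.

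Other genes of axon growth and the microtubule cytoskeleton were read against the 0.28% of all tested genes called in neurons against sham surgery and the 0.667% against the opposite side. Of 18 further growth cone genes, 1 of 18 tested rose in neurons against sham surgery and 1 of 18 against the opposite side. Both times it was Chl1, a neural cell adhesion molecule, at 9.66 to 21.6 FPKM in ligated and 3.04 to 6.90 in sham libraries (1.51 ± 0.28, adjusted p = 0.0156) and 2.11 ± 0.34 higher on the ligated side. Of 10 further tubulin genes, 1 of 8 tested rose in each. It was Tuba1c, a close relative of Tuba1a, at 35.3 to 55.0 after ligation and 17.1 to 28.3 after sham surgery (1.21 ± 0.21, adjusted p = 0.0112), with 1.60 ± 0.26 against the opposite side. Tuba1a had means of 6938 FPKM in sham and 8530 in ligated libraries. Reads can be shared between such relatives, so the level of Tuba1c is less certain too, and this was not tested. Of 16 genes for microtubule binding and modifying proteins, 0 of 15 tested were called in either comparison by limma. Map1b, the most abundant, differed by 0.12 ± 0.18 and 0.61 ± 0.22. The median difference from sham was 0.08 for the growth cone genes, 0.12 for the tubulins and -0.04 for the microtubule genes, beside 0.32 for the 10 genes.

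In SGC libraries none of these 3 lists had a called gene after surgery at either day, with medians from -0.02 to 0.45 at 3 days and from 0.12 to 0.30 at 14 days. All 8 tested tubulins had positive differences on both days, beside medians of -0.01 and -0.02 over all tested genes. Of the 4 most abundant, Tubb5 (0.48 ± 0.19 and 0.46 ± 0.19) and Tubb2a (0.79 ± 0.40 and 0.61 ± 0.40) differed most. Tubb4b (0.05 ± 0.13 and 0.09 ± 0.13) and Tuba1b (0.015 ± 0.13 and 0.013 ± 0.13) were near 0. In naive SGCs against DRGs, 10 of 16 tested growth cone genes, 8 of 9 tubulins and 8 of 16 microtubule genes were called lower, and 6, 0 and 3 were called higher, beside 27.9% of all tested genes called lower and 16.9% called higher. Tuba4a (-5.69 ± 0.49), Nrn1 (-3.30 ± 0.34) and Map1b (-3.24 ± 0.25) had the widest differences of their lists.

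FPKM are given per length, so the 10 genes can be ordered within a group. Tuba1a led in all 12 groups, and its libraries did not overlap those of the gene after it in any. In neurons Stmn2 and Stmn3 followed, and they overlapped in both sham groups and on both sides but not in ligated males or ligated females. Sprr1a changed place most: by mean it ranked 10 of 10 in opposite-side neurons, 9 in sham females and 7 in sham males. It ranked 4 on the ligated side (841 FPKM) and in ligated females (666) and 5 in ligated males (472), where its libraries overlapped those of neighbours Stmn1 and Gap43. In SGC libraries Gap43 ranked 3 and Sprr1a ranked 4 after ligation on both days, and their libraries overlapped. In naive DRGs each gene was separated from the next except Basp1 and Tubb2b.

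Deviations of log2(FPKM + 1) from group means describe which genes varied together between libraries of 1 group. In the 16 SGC libraries after surgery, 43 of the 45 pairs of the 10 genes had a positive Pearson r (median 0.45), highest for Stmn3 with Tubb2b (0.83) and Stmn2 with Stmn3 (0.80). The neuron marker sums also differ between these libraries, and the part of that in the r values was not tested. In the 20 neuron libraries 29 of 45 pairs were positive (median 0.28), with Stmn1 and Stmn2 highest (0.88), Gap43 and Stmn4 at 0.77 and Sprr1a and Stmn4 at 0.65. Tuba1a and Basp1 had the lowest r (-0.79), and the opposite-side library 2 is low in the first and high in the second. Of all other tested genes, the 3 nearest to Gap43 in neurons were Cyp4b1 (0.83), Krt19 (0.81) and Prkaa1 (0.80). Those nearest to Stmn4 were Cyp4b1 (0.88), Pnp (0.81) and Galnt6 (0.81), and those nearest to Sprr1a were E030030I06Rik (0.76), Pnp (0.75) and Gm13456 (0.74). In SGC libraries Stmn2 was nearest to Ywhah (0.97), S100a10 (0.96) and Napb (0.96), and Sprr1a to Gm14335 (0.87), the injury gene Sox11 (0.84) and Rgs1 (0.84). With this few libraries and every tested gene compared, high r values arise readily, so these are descriptions only.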

How the data were processed

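Expression was deposited by the authors as FPKM in 3 tables, 1 of which writes decimals with commas and was converted. Per the submitters' processing notes, STAR, SAMtools, Cufflinks and DESeq2 were used with build mm10, and versions and roles are not given in the sources used here. Lines sharing an identifier were summed. Per the file headers, the authors' deposited DESeq2 tables hold log2 fold changes, their SE and adjusted p-values. Their negative log2 values mean higher after ligation (121 of 122, 152 of 153 and 223 of 223 genes past 0.05 were of opposite sign in FPKM), and they are printed as ligated over sham. Depth per library is unknown, so no counting interval is given.

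All groups of a table were fitted together with limma 3.58.1 (R 4.3.3) with a mean-variance trend on log2(FPKM + 1), two-sided, with Benjamini-Hochberg adjustment over all tested genes. This scale understates changes of genes at low FPKM. The filter asked for 1 FPKM in a number of libraries equal to the smallest group size. Neuron ligated against sham is the mean of the male and female differences. There were 7 comparisons. The fits were tested on simulated data. The 10 genes and all lists were chosen with earlier results of these data known. All 10 are described. From each further list up to 4 called genes with the largest difference were eligible for naming, or, with none called, the 4 most abundant. For likeness, the 3 genes with the highest r were taken. Marker lists are given as counts and summed FPKM. Neuron libraries are numbered by column order, which pairs nothing. Alternatives were another pseudocount, no filter, quantile normalization, equal medians, only the groups compared, array weights, a replicate block and leaving out each library. Python 3.11.15, pandas 2.3.3 and Matplotlib 3.10.9 were used.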

Additional observations from a re-analysis of the deposited data

Results flagged for a closer look

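In groups of 4 libraries, a value is listed here when the highest or lowest library's gap to its nearest neighbour, as a share of the group's range of log2(FPKM + 1), exceeded Dixon's critical value. Of 78 groups examined, 5 did, and chance gives about 1 in 20. Stmn4 was low, at 1.98 FPKM, in the fourth 14-day ligated SGC library. Tubb6 was low, at 1.84, in the fourth 3-day sham SGC library, and Tubb2b was high, at 9.57, in the first. Tuba1a was high, at 8951, in the first ligated-side neuron library and low, at 3252, in the second opposite-side one.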

How the results depend on the processing

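Of 1152 values of the 10 genes under alternatives, 1093 kept direction and side of the threshold, 19 lost their call and 40 changed sign. For SGCs at 3 days the count of called genes fell from 1 to 0 with no filter (1 gene called in all), with only the groups compared (4) and with the replicate block (1). It was 0 to 1 over the libraries left out. The count over all genes, 9 as reported, was 1 to 6 over the libraries left out, 14 with a pseudocount of 0.1 and 5 with array weights. In naive libraries, Stmn4 was under the filter and not tested without any 1 of the DRG libraries (8 genes called), and 10 were called with no filter. The same replicate numbers did not deviate together (correlations -0.08 to 0.00 at 3 days, -0.04 to 0.07 at 14 days and 0.00 to 0.19 in naive libraries), and 0, 1 and 2 of 4 correlated best with their own number. Under the block, 5187 genes were called in naive libraries against 5789. At 14 days 0 were called under the block, 6 with only the groups compared, 10 with array weights and 2 without ligated library 4, against 1. For 14 against 3 days 0 were called under the block, 4 without 14-day ligated library 3 and 2 without 3-day ligated library 2, against 1, and for the sexes 1 without ligated female library 2, against 0. No paired analysis was possible for neurons because their columns carry no replicate number. In neurons, the called counts of all genes ran from 21 to 39 for ligated against sham over the libraries left out (ligated male library 3 gave 21 and ligated female library 3 gave 22) and 36 for the sides with only the groups compared, against 34 and 81.

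Signs turned in effects that did not pass. With array weights the side difference was 0.038 for Tubb2b and 0.23 for Basp1, and with quantile normalization the sex difference of Tuba1a was 0.52. Over the libraries left out, the ranges were as follows, and the cause was not tested. For ligation at 3 days, Stmn3 gave -0.42 to 0.47. At 14 days Stmn1 gave -0.022 to 0.18. For 14 against 3 days, Gap43 gave -0.33 to 0.42, Stmn2 -0.46 to 0.22 and Tuba1a -0.25 to 0.037. In neurons against sham, Basp1 gave -0.12 to 0.20. Between sexes, Gap43 gave -0.38 to 0.28, Tuba1a -0.18 to 0.19, Stmn1 -0.046 to 0.36, Tubb6 -0.37 to 0.74 and Tubb2b -0.00099 to 0.45. Between sides, Stmn3 gave -0.085 to 0.061, Tubb2b -0.39 to 0.12 and Basp1 -0.79 to 0.21.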
